A study of Mus musculus with 6 samples.

Results

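The activin, inhibin and follistatin system was examined in mouse lungs after hemorrhagic shock (HS) through 8 genes: the subunit genes *Inhba* and *Inhbb*, the follistatin genes *Fst* and *Fstl3*, the type I receptor genes *Acvr1b* and *Acvr1* and the type II receptor genes *Acvr2a* and *Acvr2b*. They were taken by gene symbol from the 54532 genes of the deposited read counts, and all 8 were found once and passed the filter on low counts. The set was chosen by its genotype differences in these same libraries, that is, with the fold changes between GRdim/dim and GR+/+ lungs known. These differences are therefore given as a description, with standard errors and without *p*-values. Whether a fit over all genes called one of the 8 is stated in the same sense, and neither is independent evidence. Bulk RNA was sequenced from 3 GR+/+ and 3 GRdim/dim lungs, with 1 library per mouse. The aim was to find genes that differ when the glucocorticoid receptor (GR) is impaired. A *p*-value thus sets a genotype difference against variation between mice, estimated with information shared across genes. In GRdim/dim animals, an exchange in the DNA-binding domain of GR, encoded by *Nr3c1* and present in the whole body, weakens receptor dimers. The GR+/+ group consisted of their littermates, and both had a 129/SvEv x C57BL/6 background and an age of 10 to 16 weeks. All 6 mice were anesthetized and ventilated, underwent HS for 1 h, and were re-transfused and resuscitated for 4 h with colloids and norepinephrine. Lungs without HS were not analysed here, so a difference between genotypes that was present before HS and one that arose after it cannot be told apart.

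Activins are secreted dimers of the TGF-β superfamily. Paired beta A chains, encoded by *Inhba*, form activin A, and paired beta B chains, encoded by *Inhbb*, form activin B, while a beta chain joined to the alpha chain (*Inha*) forms an inhibin, which opposes activin. Activin binds the type II receptors encoded by *Acvr2a* and *Acvr2b*, which recruit and phosphorylate the type I receptor ALK4, encoded by *Acvr1b*, and ALK4 activates the transcription factors SMAD2 and SMAD3. *Acvr1* encodes ALK2, a type I receptor that mainly passes BMP signals to SMAD1, SMAD5 and SMAD9 and shares the type II receptors. Follistatin (*Fst*) and follistatin-like 3 (*Fstl3*) are secreted proteins that wrap around activin and keep it from its receptors. In the lung, activin A and follistatin are known from airway inflammation, acute lung injury and fibrosis.

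Libraries held 15687734 to 32082940 counts, the largest being GR+/+ replicate 3, and levels are given as counts per 1000000 counts (CPM) after scaling by the TMM method. *Nr3c1* had 138 to 162 CPM in GR+/+ and 120 to 159 CPM in GRdim/dim lungs. Counts per gene cannot reveal the exchange itself. All listed markers of alveolar type 1 and type 2, club, ciliated and endothelial cells had counts in every library, as lung tissue should. Summed markers of alveolar macrophages (5 genes) were lower in every GRdim/dim library (198 to 216 CPM) than in any GR+/+ library (335 to 369 CPM). Summed markers of B cells (4 genes, 49.2 to 74.8 against 21.2 to 49.2 CPM), T cells (4 genes, 24.5 to 30.0 against 8.90 to 18.2 CPM) and NK cells (4 genes, 14.8 to 22.3 against 4.004 to 11.99 CPM) were higher in every GRdim/dim library, although for B cells the nearest libraries of the genotypes were almost level. Taken gene by gene, 7.05% of all genes tested were lower in every GRdim/dim library than in any GR+/+ library, and 7.77% were higher. Of the 5 alveolar macrophage markers, 1 was lower in this way. Higher in this way were 1 of 4 B cell, 3 of 4 T cell and 2 of 4 NK cell markers. The sums thus do not stand for each marker in them. None of these markers was at 0 in any library, and the part of these cells in the results below was not tested. In whole lung, fewer cells of a type and less RNA per cell cannot be told apart. Summed markers of fibroblasts, smooth muscle, mesothelial cells and neutrophils overlapped between genotypes.

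*Inhbb*, the activin B subunit gene, was 3.58 times as high in GRdim/dim as in GR+/+ lungs, while *Fst*, the gene of the activin antagonist follistatin, was 4.10 times as high in GR+/+ lungs. *Acvr2b*, a type II receptor gene, was 2.29 times as high in GR+/+ lungs. The other 5 genes differed by at most 1.29 times between the genotype means. In the fit over all 16568 genes tested (edgeR's quasi-likelihood test, called where the adjusted *p*-value was below 0.05 with an absolute log2 fold change above 0.5), 1 of the 8 genes, *Inhbb*, was called, as higher, against 0.169% of all genes called, 0.0724% as higher and 0.0966% as lower. DESeq2, the tool named for the study's own comparison, called 3 of the 8, *Inhbb* as higher and *Fst* and *Acvr2b* as lower, against 1.7% of all genes, 0.817% as higher and 0.879% as lower. The genotypes did not overlap in 5 of the 8 genes, 2 higher and 3 lower in GRdim/dim lungs, against 14.8% of all genes, 7.77% higher and 7.05% lower. Since the choice of genes drew on this comparison, nothing is read from these counts. The median log2 fold change was -0.11 over the 8 genes and 0.01 over all genes tested.

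**Figure D1:**
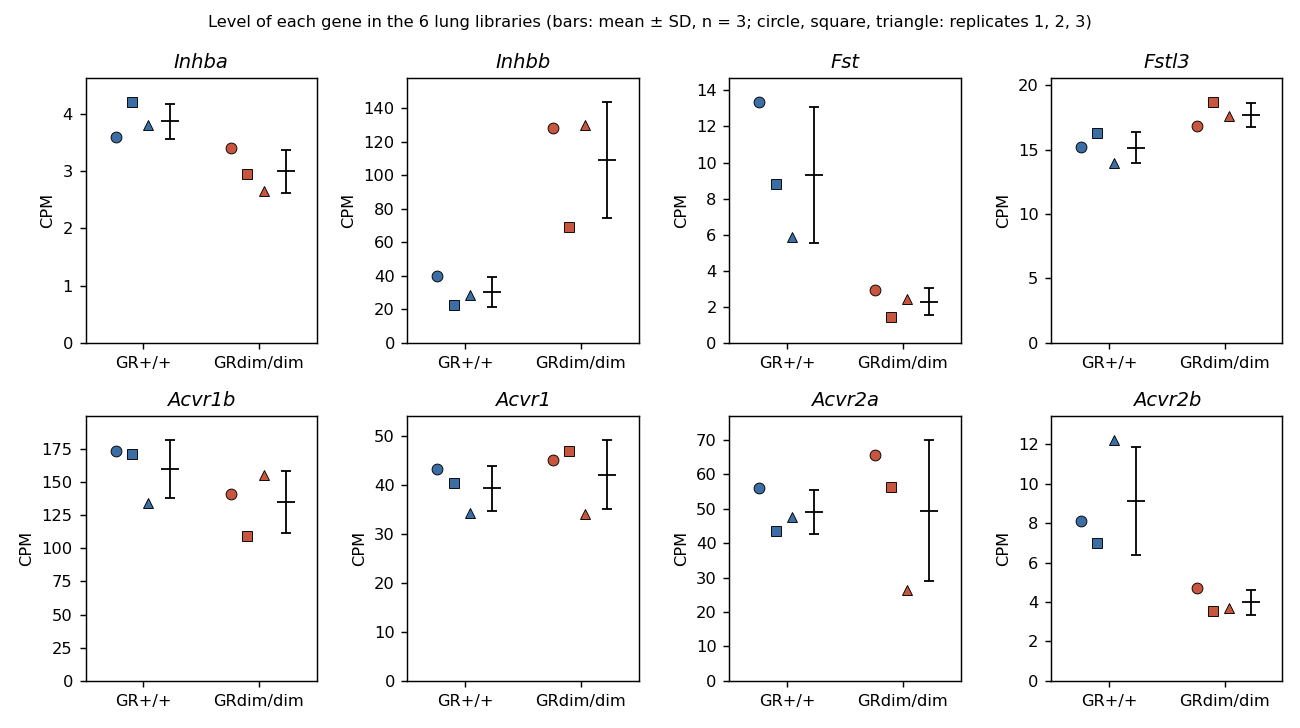
CPM of each of the 8 genes (vertical axes, starting at 0) in 3 GR+/+ and 3 GRdim/dim lung libraries, with one point per mouse and bars for the mean and SD. The GRdim/dim points lie above all GR+/+ points for *Inhbb* and *Fstl3* and below them for *Inhba*, *Fst* and *Acvr2b*, and the genotypes overlap for *Acvr1b*, *Acvr1* and *Acvr2a*.

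Of the ligand subunits, *Inhbb* (ENSMUSG00000037035) lies on chromosome 1 of GRCm38 from 119415465 to 119422248 on the minus strand and has 1 annotated transcript in 2 exonic blocks. It had 40.2, 22.8 and 28.3 CPM in GR+/+ replicates 1, 2 and 3 and 128, 69.2 and 130 CPM in GRdim/dim replicates 1, 2 and 3. The lowest GRdim/dim library thus exceeded the highest GR+/+ library. The means were 30.5 ± 8.85 CPM in GR+/+ and 109 ± 34.5 CPM in GRdim/dim lungs (SD, n = 3 each), a log2 fold change of 1.84 (standard error 0.28). These values rest on 381 to 892 reads in GR+/+ and 1666 to 2374 reads in GRdim/dim libraries, and none of its sequence windows of 31 bases occurs in another annotated gene. The edgeR call did not hold in every fit with a library left out, as it was lost without GR+/+ replicate 2 or 3 or GRdim/dim replicate 1 or 3. Such fits also called fewer genes in all, 4 to 22 against 28 with all libraries. With each of the 6 libraries left out in turn, log2 fold changes ran from 1.68 to 2.09.

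Within each genotype, *Inhbb* was highest in libraries with Y-linked expression. These were GR+/+ replicate 1 and GRdim/dim replicates 1 and 3, while the other 3 libraries expressed *Xist*, the same numbers as the 2 female and 1 male GR+/+ and the 1 female and 2 male GRdim/dim mice that were sequenced. Which mouse was female or male is not in the labels. Among libraries with Y-linked expression, *Inhbb* was 3.21 times as high in GRdim/dim (129 CPM, n = 2) as in GR+/+ (40.2 CPM, n = 1). Among libraries with *Xist*, it was 2.71 times as high (69.2 CPM, n = 1, against 25.6 CPM, n = 2). Each class holds a single library of one genotype, so neither ratio has a spread to set it against, and the part of sex in the difference was not tested. With sex-linked expression as a covariate, the log2 fold change was 1.53.

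*Inhba* (ENSMUSG00000041324), the activin A subunit gene on chromosome 13 from 16011851 to 16031621, was expressed far less than *Inhbb*. It had 3.59, 4.197 and 3.81 CPM in GR+/+ and 3.397, 2.95 and 2.65 CPM in GRdim/dim replicates 1 to 3, on 41 to 120 reads per library. Every GRdim/dim library lay below every GR+/+ library, but the gap between the nearest libraries was small, and the log2 fold change of -0.36 (standard error 0.30) was close to its standard error. Neither edgeR nor DESeq2 called it.

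The promoter windows of both subunit genes run from 250 bases before to 50 bases after the annotated start (RefSeq, GRCm38.p6). They are shown because the subunits differed much in level and *Inhbb* differed between genotypes. Those of *Acvr2b* and *Fstl3* are shown with them, since *Acvr2b* also differed and *Fstl3* holds the only other motif match. The table used held windows for 7 of the 8 genes, all but *Fst*. Capitals mark the hexamer AGAACA of the GR response element (GRE), searched on both strands.
*Inhbb* promoter, chr1:119422199-119422498, minus strand: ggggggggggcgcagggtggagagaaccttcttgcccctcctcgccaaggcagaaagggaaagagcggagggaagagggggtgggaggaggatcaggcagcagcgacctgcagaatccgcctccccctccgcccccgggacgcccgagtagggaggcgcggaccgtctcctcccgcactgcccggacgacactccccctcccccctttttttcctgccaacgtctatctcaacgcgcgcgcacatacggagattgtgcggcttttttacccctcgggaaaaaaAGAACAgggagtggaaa
*Inhba* promoter, chr13:16011601-16011900, plus strand: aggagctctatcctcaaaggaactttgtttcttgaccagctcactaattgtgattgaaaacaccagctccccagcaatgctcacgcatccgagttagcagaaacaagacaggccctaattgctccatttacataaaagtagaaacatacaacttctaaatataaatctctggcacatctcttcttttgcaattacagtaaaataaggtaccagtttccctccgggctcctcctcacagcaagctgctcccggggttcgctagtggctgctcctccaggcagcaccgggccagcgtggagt
*Acvr2b* promoter, chr9:119401928-119402227, plus strand: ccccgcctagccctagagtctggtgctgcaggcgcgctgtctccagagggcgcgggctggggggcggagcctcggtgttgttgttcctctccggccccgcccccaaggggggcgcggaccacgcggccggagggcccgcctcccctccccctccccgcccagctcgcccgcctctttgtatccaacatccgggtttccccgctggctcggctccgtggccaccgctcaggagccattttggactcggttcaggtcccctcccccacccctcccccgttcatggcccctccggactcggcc
*Fstl3* promoter, chr10:79777024-79777323, plus strand: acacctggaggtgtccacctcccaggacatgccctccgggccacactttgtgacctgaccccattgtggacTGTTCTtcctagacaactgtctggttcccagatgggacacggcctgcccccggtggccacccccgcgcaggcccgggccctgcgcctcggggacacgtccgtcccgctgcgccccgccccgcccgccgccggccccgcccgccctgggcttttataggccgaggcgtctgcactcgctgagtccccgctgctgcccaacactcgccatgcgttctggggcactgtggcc

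The *Inhbb* window held the hexamer on its coding strand, starting at base 34 after the annotated start, and the *Fstl3* window held it on the opposite strand, 179 bases before the start. Of all 32851 promoter windows in the table, 19.0% hold this hexamer. The full GRE, which holds the hexamer and, 3 bases on, its reverse complement TGTTCT, was in none of the 7 windows and in 0.009% of all windows. An AP-1 site (TGANTCA, 7.81% of all windows) and the SMAD-binding element (GTCTAGAC, 0.213%) were also in none of the 7. The *Inhba* window had a GC content of 47.7% with 7 CpG dinucleotides, against 64.3% and 23 in *Inhbb*, and the receptor gene windows ranged from 73.3% to 83.7% (medians of all windows: 52.7% and 7). A match of letters is a description and shows no binding.

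The follistatin genes differed in the size of their genotype difference. *Fst* (ENSMUSG00000021765, chromosome 13 from 114452290 to 114458951, minus strand) had 13.3, 8.81 and 5.85 CPM in GR+/+ and 2.91, 1.45 and 2.45 CPM in GRdim/dim replicates 1 to 3. The lowest GR+/+ library lay above the highest GRdim/dim library. The means were 9.33 ± 3.77 and 2.27 ± 0.745 CPM (SD, n = 3 each), a log2 fold change of -2.04 (standard error 0.39). The gene was low, with 147 to 223 reads in GR+/+ and 35 to 54 reads in GRdim/dim libraries. The GR+/+ to GRdim/dim ratio was 4.97 among libraries with Y-linked expression and 5.04 among those with *Xist*. An antisense gene, *Gm47040*, overlaps 115 exonic bases of *Fst* and had 0 counts in all libraries.

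*Fstl3* (ENSMUSG00000020325, chromosome 10 from 79777272 to 79782630) varied least of the 8 genes, with a coefficient of variation of 7.80% in GR+/+ and 5.18% in GRdim/dim lungs. It had 15.2, 16.3 and 13.9 CPM in GR+/+ and 16.8, 18.7 and 17.6 CPM in GRdim/dim replicates 1 to 3. All GRdim/dim libraries lay above all GR+/+ libraries, by a log2 fold change of 0.23 (standard error 0.20), and neither tool called it. Exons of *Prss57* on the opposite strand cover 1157 of its 2445 exonic bases, and *Prss57* had at most 6 counts in any library. As the strand setting is unknown, reads from the shared bases may have been left out of the counts of both genes. The level of *Fstl3* per kilobase, and with it the share of *Fst* among follistatins, is uncertain to that extent. So are the place of *Fstl3* in the order of levels, the summed follistatin level and the ratio of beta subunits to follistatins.

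Among the receptor genes, *Acvr2b* (ENSMUSG00000061393, chromosome 9 from 119402118 to 119434995) had 8.13, 7.02 and 12.2 CPM in GR+/+ and 4.69, 3.57 and 3.68 CPM in GRdim/dim replicates 1 to 3. All GRdim/dim libraries were below all GR+/+ libraries, and GR+/+ replicate 3, the deepest library, was the highest. The means were 9.11 ± 2.73 and 3.98 ± 0.617 CPM (SD, n = 3 each), a log2 fold change of -1.20 (standard error 0.30). Without GR+/+ replicate 3, the log2 fold change was -0.93. It rested on 57 to 384 reads per library.

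Its paralog *Acvr2a* (ENSMUSG00000052155, chromosome 2 from 48814109 to 48903269) had close means in both genotypes, 49.1 ± 6.35 CPM in GR+/+ and 49.4 ± 20.4 CPM in GRdim/dim lungs (SD, n = 3 each). GR+/+ libraries had 56.1, 43.7 and 47.5 CPM, and GRdim/dim libraries 65.5, 56.3 and 26.5 CPM, so GRdim/dim replicates 1 and 2 were the highest of the 6 libraries and GRdim/dim replicate 3 the lowest. The log2 fold change of 0.01 (standard error 0.29) became 0.31 without GRdim/dim replicate 3. Exons of *Orc4*, an origin recognition complex gene on the opposite strand, cover 446 exonic bases of *Acvr2a*, and the use of strand in counting is not given in the sources used here. *Orc4* itself ranged from 33.0 CPM in GRdim/dim replicate 3 to 49.1 CPM in GRdim/dim replicate 1. The level of *Acvr2a* per kilobase and its place in the order of levels are uncertain to that extent. So are the share of *Acvr2b* among type II receptors and the summed receptor level.

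*Acvr1b* (ENSMUSG00000000532, chromosome 15 from 101174067 to 101213684), the ALK4 gene, was the most abundant of the 8. It had 173, 171 and 135 CPM in GR+/+ and 141, 109 and 155 CPM in GRdim/dim replicates 1 to 3. The genotypes overlapped, at a log2 fold change of -0.24 (standard error 0.19). *Acvr1* (ENSMUSG00000026836, chromosome 2 from 58388644 to 58567157), the ALK2 gene, had 43.4, 40.5 and 34.4 CPM in GR+/+ and 45.2, 47.1 and 34.1 CPM in GRdim/dim replicates 1 to 3. They overlapped as well, at a log2 fold change of 0.10 (standard error 0.19). For *Acvr1b*, *Acvr1* and *Acvr2a*, neither tool called a difference.

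Levels were compared between genes after division by exonic length, as CPM per kilobase. In GR+/+ lungs the order was *Acvr1b* (36.1 CPM per kilobase), *Acvr2a* (8.63), *Acvr1* (8.17), *Inhbb* (7.16), *Fstl3* (6.19), *Acvr2b* (2.32), *Fst* (2.03) and *Inhba* (0.605). From *Acvr2a* to *Fstl3*, each gene overlapped the next, and so did *Acvr2b* and *Fst*, whereas *Acvr1b*, the group of *Acvr2b* and *Fst*, and *Inhba* stood apart from their neighbors in every GR+/+ library. In GRdim/dim lungs *Inhbb* stood second, at 25.6 CPM per kilobase, below *Acvr1b* at 30.6 and above *Acvr1* at 8.73. It lay below *Acvr1b* in each GRdim/dim mouse, though the ranges overlapped, and above *Acvr1* without overlap. At the lower end, *Fst* (0.495) and *Inhba* (0.469) overlapped in GRdim/dim lungs.

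**Figure D2:**
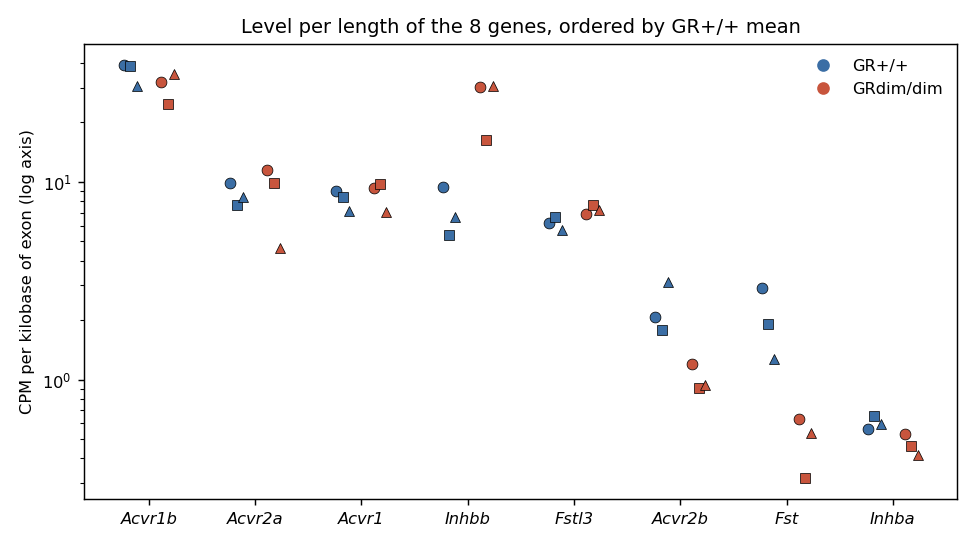
CPM per kilobase of exon on a log axis for the 8 genes, ordered by their GR+/+ mean, with one point per library (GR+/+ blue, GRdim/dim red). *Inhbb* lies at 5.37 to 9.44 in GR+/+ and at 16.3 to 30.5 in GRdim/dim libraries, close to *Acvr1b*, while *Fst* overlaps *Inhba* in GRdim/dim libraries.

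The composition of the system was described by sums of CPM per kilobase, which measure transcripts and not protein. *Inhbb* made up 94.4, 89.1 and 91.8% of the summed beta subunit level in GR+/+ replicates 1, 2 and 3 and 98.3, 97.2 and 98.7% in GRdim/dim replicates 1, 2 and 3. Its level was 12.1 ± 4.39 times that of *Inhba* in GR+/+ and 55.1 ± 19.2 times in GRdim/dim lungs (SD, n = 3 each). In both genotypes, the beta B transcript was the prevailing one.

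*Fst* made up 31.9, 22.4 and 18.3% of the summed follistatin level in GR+/+ and 8.44, 3.99 and 6.90% in GRdim/dim replicates 1 to 3. The sum of *Fst* and *Fstl3* overlapped between genotypes, with 8.23 ± 1.11 in GR+/+ and 7.74 ± 0.215 CPM per kilobase in GRdim/dim lungs (SD, n = 3 each). The ratio of beta subunits to follistatins was 1.097, 0.701 and 1.04 in GR+/+ and 4.07, 2.11 and 3.99 in GRdim/dim replicates 1 to 3. It was higher in every GRdim/dim mouse, and the sum of the subunits, not the sum of the follistatins, differed without overlap. The follistatin sum and this ratio carry the uncertainty in the level of *Fstl3* given above.

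*Acvr2b* gave 17.4, 18.9 and 27.1% of the type II receptor level in GR+/+ and 9.39, 8.41 and 16.8% in GRdim/dim replicates 1 to 3. Although these shares did not overlap, GRdim/dim replicate 3 came close to the lowest GR+/+ library, since its *Acvr2a* level was low. The summed level of the 4 receptor genes overlapped, with 55.2 ± 5.67 in GR+/+ and 49.0 ± 4.47 CPM per kilobase in GRdim/dim lungs (SD, n = 3 each). These shares and this sum carry the uncertainty in the level of *Acvr2a* given above.

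**Figure D3:**
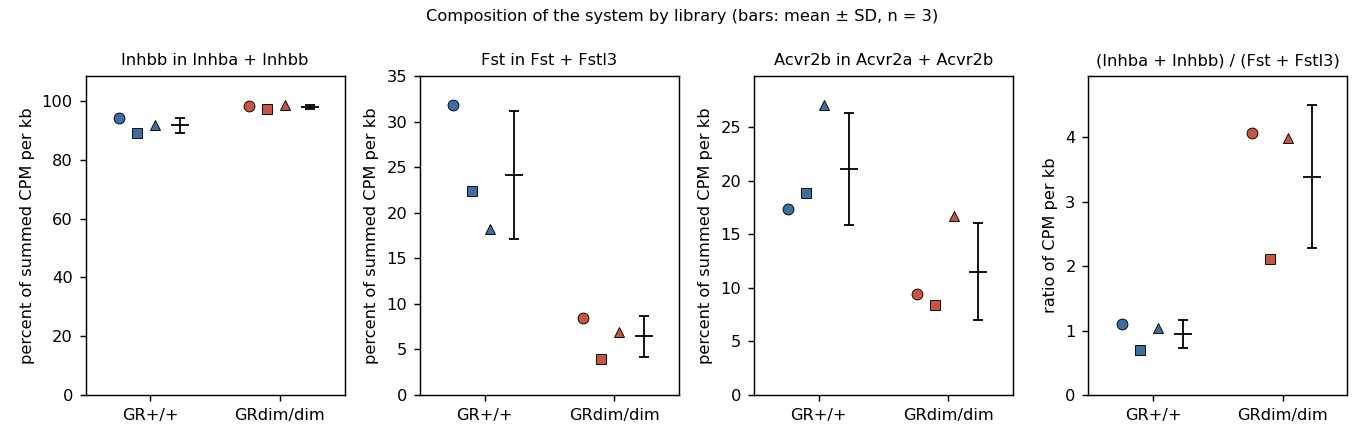
Shares of *Inhbb* among beta subunits, of *Fst* among follistatins and of *Acvr2b* among type II receptors (percent of summed CPM per kilobase), and the ratio of beta subunits to follistatins, with one point per library and bars for mean and SD. GRdim/dim libraries lie above GR+/+ libraries in the first and the last panel and below them in the other panels.

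The genes whose levels followed *Inhbb*, *Fst* and *Acvr2b* most closely over the 6 libraries were found among 15341 genes with a mean of at least 1 CPM, by the root mean square (RMS) difference of mean-centered log2 CPM. This is a description of 6 libraries that differ in genotype, sex and depth. For *Inhbb*, whose own range was 2.51 on the log2 scale, they were *Cyp7b1* (RMS difference 0.266), which encodes an oxysterol hydroxylase, *A630023P12Rik* (0.320) and *Pcdhb15* (0.342), a protocadherin gene. *Cyp7b1* had 5.98, 4.50 and 3.56 CPM in GR+/+ and 21.7, 10.1 and 14.6 CPM in GRdim/dim replicates 1 to 3. *A630023P12Rik* was low, with 0.318 to 0.538 CPM in GR+/+ and 1.41 to 2.002 CPM in GRdim/dim libraries. *Pcdhb15* was low too, with 0.540 to 0.956 CPM in GR+/+ and 1.58 to 2.26 CPM in GRdim/dim libraries. For *Fst*, with a range of 3.18, they were *Lamc3* (0.331), a laminin chain gene, the homeobox gene *Hoxb3* (0.334) and *Clca3a1* (0.344), a calcium-activated chloride channel regulator gene. For *Acvr2b*, with a range of 1.77, they were the mucin gene *Muc4* (0.123), *Cdyl2* (0.127) and *Clec2d* (0.157), all of them highest in GR+/+ replicate 3.

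Beyond the 8 genes, 50 further genes of the pathway were listed by role, and 40 passed the filter on low counts. The list was drawn up with earlier results of these data known, so the counts and *p*-values of its genes are a description and not independent evidence. Of these 40, edgeR's quasi-likelihood test called 0, against 0.169% of all genes. A raw *p* below 0.05 was found for 9, against 9.6% of all genes, with 5 higher (4.91% of all genes) and 4 lower (4.68% of all genes) in GRdim/dim lungs. DESeq2 called 2, both lower, against 0.879% of all genes called lower. The median log2 fold change was -0.02 over the 40 genes. The 10 genes not tested included *Inhbc*, *Gdf1* and *Cfc1*, which were listed at 0 counts in all libraries, and the ligand genes *Nodal*, *Mstn*, *Gdf3* and *Inhbe*, with at most 8 counts in any library.

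*Inha*, the inhibin alpha gene, had 3.47, 5.76 and 2.45 CPM in GR+/+ and 3.51, 6.61 and 6.01 CPM in GRdim/dim replicates 1 to 3, with overlap between genotypes. Among ligands of the BMP branch, *Bmp6* had 274, 306 and 200.3 CPM in GR+/+ and 117, 131 and 142 CPM in GRdim/dim replicates 1 to 3. All GRdim/dim libraries lay below all GR+/+ libraries, with -1.002 ± 0.20 as log2 fold change and standard error (edgeR, adjusted *p* = 0.0997), and DESeq2 called it. The other 2 BMP ligand genes overlapped between genotypes. The convertase gene *Furin*, whose product cleaves activin precursors, had 192 ± 29.1 and 162 ± 10.2 CPM (SD, n = 3 each). Of 3 convertase genes edgeR called 0, and 1 was higher at a raw *p* below 0.05, against 4.91% of all genes.

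Of the intracellular genes, *Smad9* of the BMP branch was the second that DESeq2 called. It had 26.0, 28.6 and 27.1 CPM in GR+/+ and 11.3, 15.99 and 8.07 CPM in GRdim/dim replicates 1 to 3, with -1.20 ± 0.26 as log2 fold change and standard error (edgeR, adjusted *p* = 0.132). *Smad1*, named after its values were seen, lay the other way, with 58.7, 52.9 and 40.9 CPM in GR+/+ and 93.2, 60.9 and 73.9 CPM in GRdim/dim replicates 1 to 3. Its log2 fold change and standard error were 0.58 ± 0.21 (edgeR, adjusted *p* = 0.417), and neither tool called it. Of the 3 genes of this branch edgeR called 0. At a raw *p* below 0.05, 1 was higher and 1 lower, against 4.91% and 4.68% of all genes. *Smad5*, the most abundant of that branch, had 108 ± 11.7 and 119 ± 10.8 CPM (SD, n = 3 each). *Smad4*, the partner shared by both branches, had 112 ± 5.40 and 104 ± 13.3 CPM (SD, n = 3 each). The 4 tested genes of the SMAD2/3 branch had log2 fold changes from -0.12 to 0.32, and all 4 overlapped between genotypes.

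Of 7 inhibitors of SMAD signaling, edgeR and DESeq2 called 0. From edgeR, 2 of the 7 had a raw *p* below 0.05, 1 in each direction, against 9.6% of all genes. The most abundant, *Smad6*, had 594 ± 135 and 447 ± 163 CPM (SD, n = 3 each). Of 4 response genes of the SMAD2/3 branch, both tools called 0. At a raw *p* below 0.05 from edgeR, 2 of the 4 were higher, against 4.91% of all genes. *Ccn2*, the most abundant of the 4 and not one of these 2, had 246 ± 77.2 and 212 ± 71.4 CPM (SD, n = 3 each). Of 4 response genes of the SMAD1/5/9 branch, both tools called 0 and none had a raw *p* below 0.05 from edgeR. Their most abundant gene, *Id3*, had 301 ± 17.8 and 291 ± 93.3 CPM (SD, n = 3 each).

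Of the other receptors and co-receptors, *Eng* (endoglin) was the most abundant, with 1359 ± 433 and 1025 ± 41.4 CPM (SD, n = 3 each). Of 5 tested genes edgeR and DESeq2 called 0. From edgeR, 1 of the 5 was lower at a raw *p* below 0.05, against 4.68% of all genes. Of the other binding proteins and decoys, both tools called 0 of 5 tested genes, and none had a raw *p* below 0.05 from edgeR. *Fstl1*, the most abundant of them, had 91.6 ± 25.4 and 106 ± 15.0 CPM (SD, n = 3 each).

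**Figure D4:**
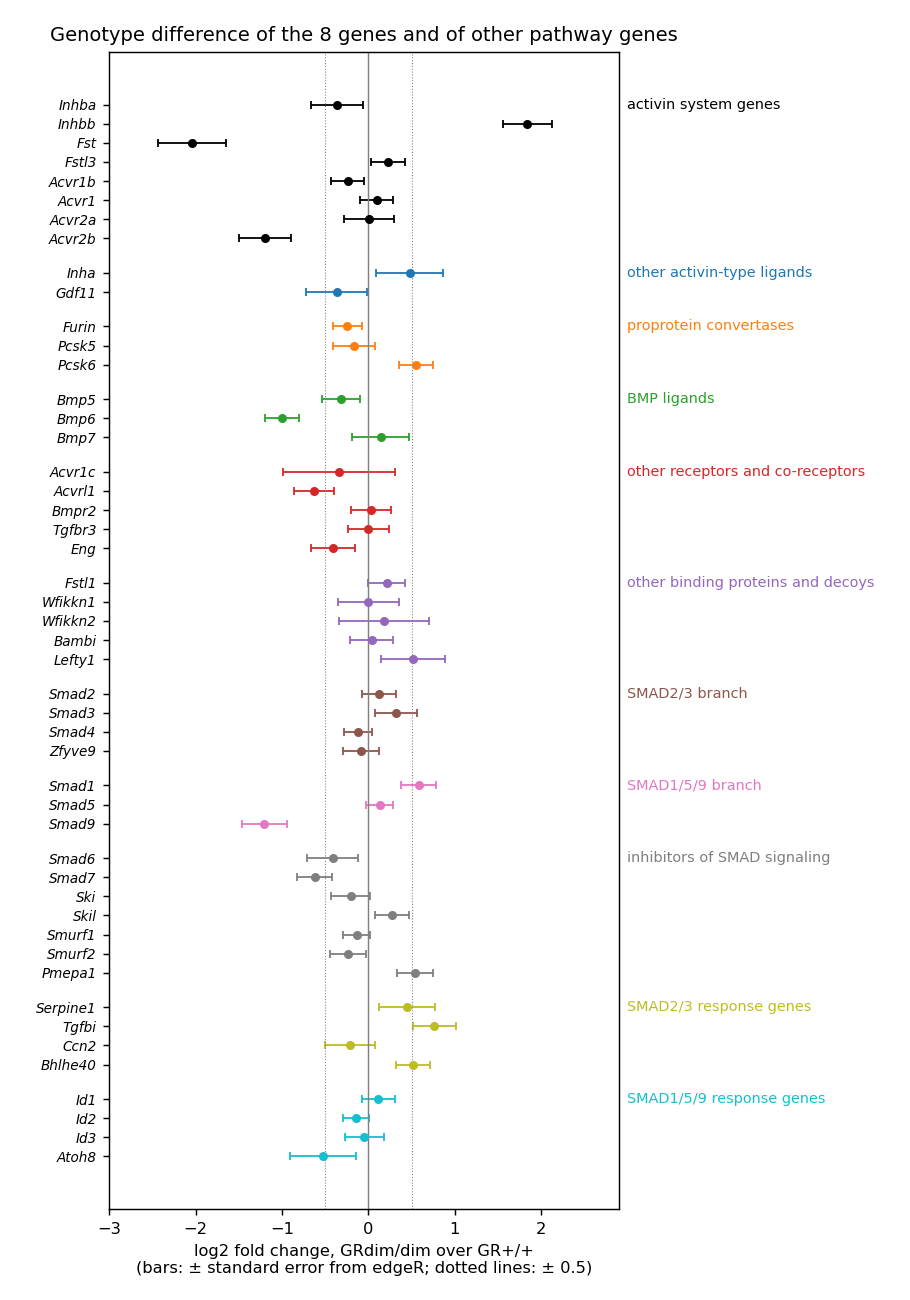
Log2 fold change, GRdim/dim over GR+/+, with its standard error from edgeR for the 8 genes (black) and for 40 tested pathway genes by role (colors). *Inhbb* at 1.84 and *Fst* at -2.04 lie outside the range of the other pathway genes, -1.20 to 0.76, while *Acvr2b* lies within it. The 8 genes were chosen with these fold changes known, so nothing is read from that difference.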

How the data were processed

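For 6 lung libraries made with poly(A) capture, the deposited values were whole-number counts of reads for each gene, not normalized by the authors. The submitters' processing notes name mm10 and DESeq2. The aligner, counting tool and strand setting are not given in the sources used here. Gene lengths came from the same deposited table and equal the exon unions of GENCODE M21 for all 8 genes. Genotypes were compared by edgeR 4.0.16 under R 4.3.3 (TMM, filterByExpr, robust glmQLFit, glmQLFTest, Benjamini-Hochberg adjustment over 16568 genes). A call required an adjusted *p* below 0.05 together with an absolute log2 fold change above 0.5. DESeq2 1.42.0 was an alternative. No library pair within a genotype was a duplicate (chi-square per gene 19.2 to 63.0, where sampling noise gives about 1). Named were the 8 genes, pathway genes called by either tool or most abundant in their role, and the 3 genes most alike to *Inhbb*, *Fst* and *Acvr2b*. The genes and lists were chosen with earlier results of these data known. Likeness used log2 CPM with a prior count of 0.5. Promoter windows came from RefSeq (GRCm38.p6). Alternatives were another normalization, 2 other filters, DESeq2, a replicate block, a sex-linked covariate, no fold threshold and each library left out. The edgeR and DESeq2 fits were tested on a few simulated data sets, drawn from means and dispersions fitted to these libraries. False calls there exceeded the nominal share with both tools and more so with DESeq2. This holds for the simulated setting and gives no error rate for the genes called here.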

Additional observations from a re-analysis of the deposited data

How the results depend on the processing

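The fold changes of *Inhbb*, *Fst*, *Acvr2b*, *Inhba*, *Fstl3*, *Acvr1b* and *Acvr1* kept their sign under the 12 alternatives that refit the fold change, with log2 ranges of 1.53 to 2.09 for *Inhbb*, -2.35 to -1.69 for *Fst* and -1.35 to -0.93 for *Acvr2b*; that of *Acvr2a* changed sign in 5. Dropping the fold threshold changes no fold and gave the same counts, 28 genes and 1 of the 8. *Inhbb* was called in 8 of the 12, among them 2 of the 6 that left out a library (without GR+/+ replicate 1 or GRdim/dim replicate 2), *Fst* in 3 and *Acvr2b* in 2. With DESeq2, 3 of the 8 genes were called, 2 pathway genes (0 higher, 2 lower) and 274 genes in all (132 higher, 142 lower). Without a filter on low counts, the numbers were 3 of the 8 genes, 3 pathway genes (1 higher, *Tgfbi*, which was named after its values were seen, and 2 lower) and 522 genes in all (255 higher, 267 lower). With sex-linked expression as a covariate, 2 of the 8 genes were called, *Inhbb* and *Fst*, and 20 genes in all (8 higher, 12 lower). The cause of these shifts was not tested. With a library left out, edgeR called 4 to 22 genes (1 to 13 higher, 3 to 12 lower), 0 to 1 of the 8 genes and 0 pathway genes, with 4 genes without GR+/+ replicate 2. The labels share replicate numbers between genotypes, and deviations of same-numbered libraries correlated at 0.216, 0.0312 and -0.0704. GR+/+ replicates 1 and 2 correlated best with their own number, and GR+/+ replicate 3 with GRdim/dim replicate 2 (0.21). The study treated each mouse independently and on its own day, and the numbers were not taken as pairs. With the replicate block, 34 genes were called, 1 of the 8 genes and 0 pathway genes. Depth limits *Fst*, *Inhba* and *Acvr2b*, which rest on as few as 35, 41 and 57 reads in a library.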
